A study of Mus musculus with 2 samples.

Results

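Aminoacyl-tRNA synthetase genes were followed across the 6 conditions of a single-cell experiment on cells of the mouse hair follicle stem cell lineage. They were taken as a list of 35 symbols, all present among the 32285 genes of the deposited feature table: 19 cytosolic enzymes or subunits and 16 mitochondrial enzymes, whose symbols end in 2. The list is defined by symbols and not by measured values, but it was drawn up with earlier results of these data known. The methionyl enzyme of the cytosol (Mars) is not on the list and is given with the related genes.

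The study asks how the serine-synthesis enzyme PHGDH bears on hair follicle stem cells in resting and wounded skin. All mice were C57B6/J and carried Sox9-CreER, a tamoxifen-inducible Cre driven by a gene active in these stem cells, and R26-LSL-YFP, a reporter that Cre switches on, so that YFP marks Sox9-expressing cells and their descendants. Phgdh was floxed on both alleles (Phgdh fl/fl, written fl/fl below), which the same Cre deletes, or intact (Phgdh +/+, written +/+). Cells came from skin at 3 and 5 days after wounding or from unwounded skin of each genotype. The age of the mice, their number and how Cre was induced are not given in the sources used here, and male and female animals were pooled. Wounded cells were sorted as integrin-α6 high and YFP-positive after exclusion of CD140a, CD117, CD31 and CD45, while unwounded cells also had to be CD34- and CD200-positive and SCA1-negative. The 6 conditions were labelled with 6 hashtag antibodies and run as 1 capture with 3′ counting of unique molecules (UMIs), so each condition is 1 pool of cells without a replicate. No test was therefore possible, and "higher" and "lower" describe these pools.

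Synthetases join amino acids to the matching transfer RNAs, the step that fixes the genetic code. Mammals keep separate nuclear genes for the cytosolic and the mitochondrial enzymes, apart from Gars and Kars, which make both forms. Several cytosolic enzymes sit in a multisynthetase complex on the scaffold proteins Aimp1, Aimp2 and Eef1e1. Many cytosolic synthetase genes are induced by ATF4, the transcription factor of the amino acid and integrated stress responses, which also drives Asns and the serine-synthesis genes Phgdh and Psat1. Serine gives rise to glycine and cysteine, so the enzymes that charge these amino acids (Sars, Gars, Cars, Sars2 and Cars2) are given in every pool.

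The ATF4 binding element is shown first, because it marks part of the cytosolic list and no gene of the mitochondrial list in the windows read. The core TGATGNAA and its reverse complement TTNCATCA were searched on both strands of RefSeq promoter windows (GRCm38.p6), the assembly from which gene positions are also given. A window was at hand for 12 of the 19 cytosolic and 14 of the 16 mitochondrial genes. The core was present in 5 of the 12 cytosolic windows (Aars, Gars, Iars, Tars and Yars), in 0 of the 14 mitochondrial windows, and in 1219 of 27025 windows over all genes (4.51%). All 5 belong to the 7 genes with a window among the 11 synthetases known as ATF4-induced, and 0 of the 5 windows of other cytosolic members held it. A match describes the letters and is no evidence of binding. For each gene a 30-base stretch around a match is given 5′ to 3′ on the gene's strand with the core in capitals, together with that of Asns, a textbook ATF4 target.
Aars chr8:111033840-111033869 (+ strand): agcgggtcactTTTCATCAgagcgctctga
Gars chr6:55037960-55037989 (+ strand): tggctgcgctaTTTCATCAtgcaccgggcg
Iars chr13:49682126-49682155 (+ strand): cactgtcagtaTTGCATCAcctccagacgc
Tars chr15:11399655-11399684 (- strand): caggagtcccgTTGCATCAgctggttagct
Yars chr4:129189895-129189924 (+ strand): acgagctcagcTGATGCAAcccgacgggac
Asns chr6:7693214-7693243 (- strand): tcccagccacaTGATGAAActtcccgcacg
The Aars window starts inside the span annotated for the gene. In the stretches of Aars, Gars, Iars and Tars the core reads as the reverse complement, while in those of Yars and Asns it reads forward.

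From unwounded skin, 3-day and 5-day wounds there were 662, 523 and 1434 fl/fl cells, and 406, 1281 and 1353 +/+ cells. The median cell of a wounded pool held between 36277 and 45702 UMIs, against 7243 UMIs in unwounded fl/fl and 7174.5 UMIs in unwounded +/+ cells. Levels are counts scaled to the UMIs of the pool (CPM), and 3 UMIs, the limit that a count of 0 allows, corresponded to between 0.0423 and 0.926 CPM. Intervals are 95% and cover counting error only. Phgdh stood at 25.2, 15.3 and 20.2 CPM in the fl/fl pools (unwounded, 3 and 5 days) and at 54.3, 117 and 138 CPM in the +/+ pools, so it was lower in fl/fl at every stage. The summed bulge stem cell markers, which include the sort markers Cd34 and Cd200, stood at 346 to 894 CPM in wounded pools, against 16779 CPM in the unwounded fl/fl pool and 15786 CPM in the unwounded +/+ pool. The summed cycling markers ran the other way, with 893 to 969 CPM in wounded and 105 to 115 CPM in unwounded pools, and the markers of dissociation stress lay at 2326 to 3141 CPM in wounded and 5195 to 7449 CPM in unwounded pools. Of the cell types the sort should exclude, fibroblast markers summed to 0.606 to 1.66 CPM in wounded and 29.3 to 32.3 CPM in unwounded pools, where 1 of the 6 reached 5 CPM and Dcn and Lum were at 0. Immune, endothelial and erythrocyte markers summed to at most 9.32 CPM in every pool. Melanocyte markers summed to 1.35 and 13.7 CPM in the 3- and 5-day fl/fl pools and 1.53 and 18.9 CPM in the +/+ ones, against 18.4 CPM in unwounded fl/fl and 0.617 CPM in unwounded +/+ cells, and 19 cells formed a melanocyte-like cluster. Wounding therefore came with other cell types, depth and gates, and their part in the results was not tested. Fewer cells of a type and less RNA per cell cannot be told apart in pool sums. Female-called cells were found in the wounded +/+ pools alone (31.1% of cells at 3 days and 23.7% at 5 days).

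Counts and medians were taken over genes whose levels in the 6 pools averaged 5 CPM or more. They were 10045 of all genes and 31 of the 35 members: all 19 cytosolic ones and 12 mitochondrial ones, without Aars2, Pars2, Sars2 and Vars2. A member was counted as higher or lower past 1.5-fold (0.58 on the log2 scale).

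Most cytosolic synthetases made up a larger share of the UMIs in wounded than in unwounded cells of both genotypes. In fl/fl cells 14 of the 19 were more than 1.5-fold higher at 3 days and 16 at 5 days, where 21.6% and 21.8% of all genes were. In +/+ cells 13 were higher at 3 days and 12 at 5 days, where 21.1% and 20.2% of all genes were. No cytosolic member was 1.5-fold lower in any of the 4 comparisons, against 38.6% to 39.5% of all genes. The median log2 fold of the list was 0.98 at 3 days and 1.08 at 5 days in fl/fl, and 0.95 and 0.83 in +/+. The medians over all genes were -0.26 and -0.25 in fl/fl, and -0.24 and -0.28 in +/+. The 3- and 5-day folds of a genotype share the unwounded pool. Past 1.5-fold in both genotypes were 12 cytosolic members at 3 days (Aars, Cars, Eprs, Gars, Hars, Kars, Nars, Qars, Rars, Sars, Tars and Vars) and 12 at 5 days, with Iars in place of Kars. Over all genes, 18.6% and 18.0% were higher past 1.5-fold in both genotypes at these days.

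**Figure D1:**
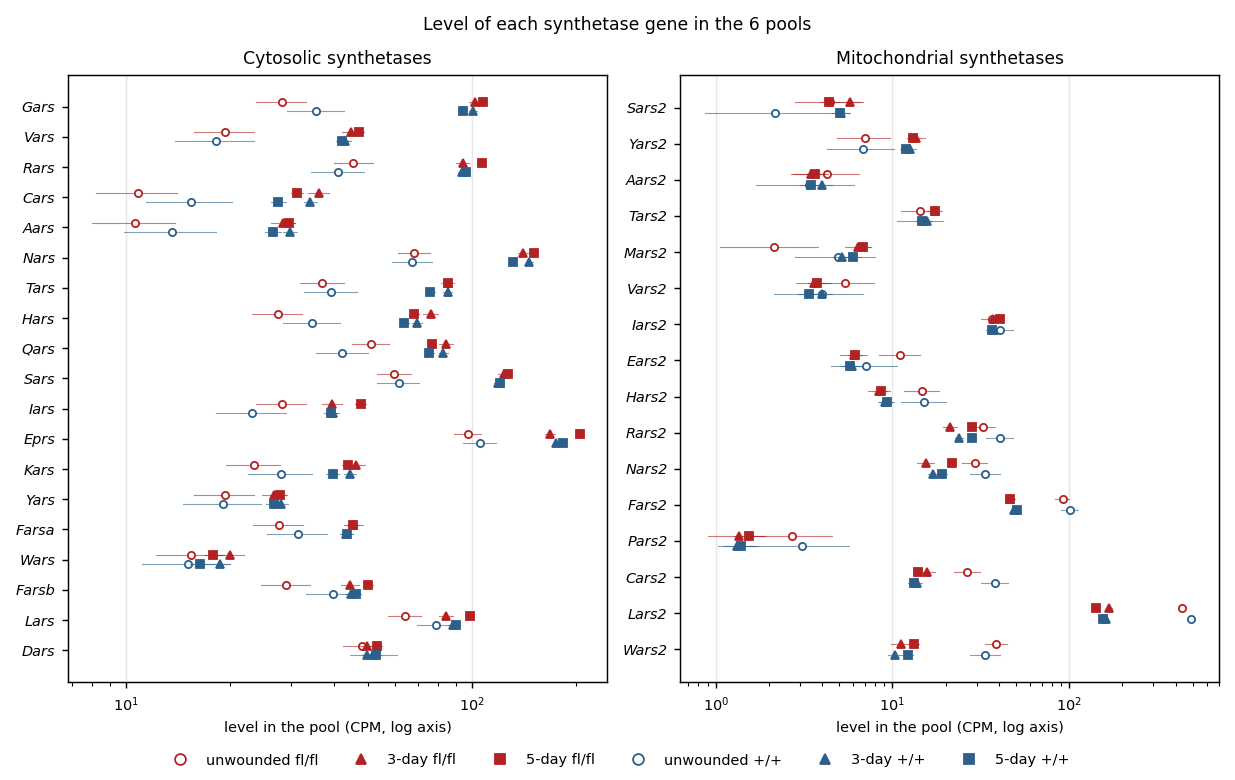
Level of each synthetase gene in the 6 pools, in CPM on a log axis, with fl/fl pools in red just above the +/+ pools in blue and exact Poisson 95% intervals. Gars lies between 94.1 and 108 CPM in the 4 wounded pools and between 28.3 and 35.5 CPM in the unwounded pools, while Lars2 lies between 142 and 169 CPM and between 434 and 489.9 CPM in the same groups.

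Gars (ENSMUSG00000029777, chromosome 6 from 55038001 to 55079504), the glycyl enzyme, stood at 28.3, 102 and 108 CPM in fl/fl pools (unwounded, 3 and 5 days). It stood at 35.5, 100.5 and 94.1 CPM in +/+ pools. All 4 wounded pools lay above both unwounded ones. The log2 fold over unwounded was 1.85 (1.61 to 2.11) at 3 days and 1.93 (1.70 to 2.18) at 5 days in fl/fl, and 1.501 (1.23 to 1.78) and 1.41 (1.14 to 1.69) in +/+.

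Cars (ENSMUSG00000010755, chromosome 7 from 143557230 to 143600090), the cysteinyl enzyme, stood at 10.8, 36.1 and 31.2 CPM in fl/fl pools. In +/+ pools it stood at 15.4, 34.2 and 27.6 CPM. Both genotypes were higher at 3 than at 5 days, and the unwounded pools did not overlap with the wounded ones. The fold was 1.74 (1.35 to 2.16) and 1.53 (1.14 to 1.94) in fl/fl at 3 and 5 days, and 1.15 (0.74 to 1.58) and 0.84 (0.43 to 1.28) in +/+.

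Sars (ENSMUSG00000068739, chromosome 3 from 108424864 to 108445259), the seryl enzyme, stood at 59.6, 124 and 127 CPM in fl/fl pools. In +/+ pools it stood at 61.4, 119 and 121 CPM. The genotypes lay close together at each stage, and the wounded pools were all above the unwounded ones. The fold was 1.05 (0.88 to 1.23) and 1.09 (0.93 to 1.26) in fl/fl, and 0.95 (0.75 to 1.17) and 0.98 (0.77 to 1.19) in +/+.

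Aars (chromosome 8 from 111027778 to 111055569), Rars (chromosome 11 from 35808381 to 35834528) and Vars (chromosome 17 from 35000907 to 35016329) charge alanine, arginine and valine and were, with Gars and Cars, the 5 highest folds at 3 days in +/+. Aars stood at 10.6, 28.5 and 29.6 CPM in fl/fl and at 13.6, 29.9 and 26.7 CPM in +/+ pools. Rars stood at 45.5, 93.9 and 107 CPM in fl/fl and at 41.0, 93.8 and 96.0 CPM in +/+ pools. For both genes every wounded pool exceeded the unwounded pools. Vars stood at 19.4, 44.8 and 47.2 CPM in fl/fl and at 18.2, 43.0 and 42.3 CPM in +/+ pools. Their folds at 3 days were 1.42 (1.02 to 1.85), 1.05 (0.85 to 1.25) and 1.21 (0.91 to 1.52) in fl/fl for Aars, Rars and Vars. In +/+ they were 1.14 (0.71 to 1.603), 1.19 (0.94 to 1.45) and 1.24 (0.87 to 1.64) in the same order.

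Dars, Lars and Farsb had the 3 lowest folds of the cytosolic list at 3 days in +/+. Dars (chromosome 1 from 128363707 to 128417416), the aspartyl enzyme, stood at 48.2, 49.9 and 53.3 CPM in fl/fl and at 52.1, 49.9 and 52.8 CPM in +/+ pools. Wounded and unwounded pools overlapped. Its fold was between -0.06 and 0.14 in the 4 wounding comparisons, each interval spanning 0. Lars, the leucyl enzyme, stood at 64.1, 84.1 and 98.7 CPM in fl/fl and at 78.7, 87.9 and 89.7 CPM in +/+ pools, with folds of 0.39 (0.22 to 0.57) and 0.62 (0.46 to 0.79) in fl/fl and of 0.16 (-0.02 to 0.35) and 0.19 (0.01 to 0.38) in +/+. The 2 unwounded pools were the lowest, and the fl/fl one was the lower of them. Farsb (chromosome 1 from 78417958 to 78488897) encodes the β subunit of the phenylalanyl enzyme and stood at 29.0, 44.5 and 50.1 CPM in fl/fl and at 39.8, 44.8 and 46.1 CPM in +/+ pools. Its fold was 0.61 (0.37 to 0.87) and 0.79 (0.55 to 1.03) in fl/fl, and 0.17 (-0.09 to 0.44) and 0.21 (-0.04 to 0.48) in +/+. The folds of its partner subunit Farsa were 0.72 and 0.71 in fl/fl, and 0.46 and 0.47 in +/+.

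The other cytosolic members (Eprs, Hars, Iars, Kars, Nars, Qars, Tars, Wars and Yars) had folds of 0.37 to 1.47 in fl/fl and 0.30 to 1.12 in +/+ at 3 days. Wars was the lowest of them in each genotype, and its +/+ interval spanned 0 (-0.11 to 0.75). Eprs, which charges both glutamate and proline, stood at 97.3, 168 and 205 CPM in fl/fl and at 105, 175 and 184 CPM in +/+ pools. Its wounded pools were all above its unwounded pools, with the 5-day fl/fl pool the highest.

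**Figure D2:**
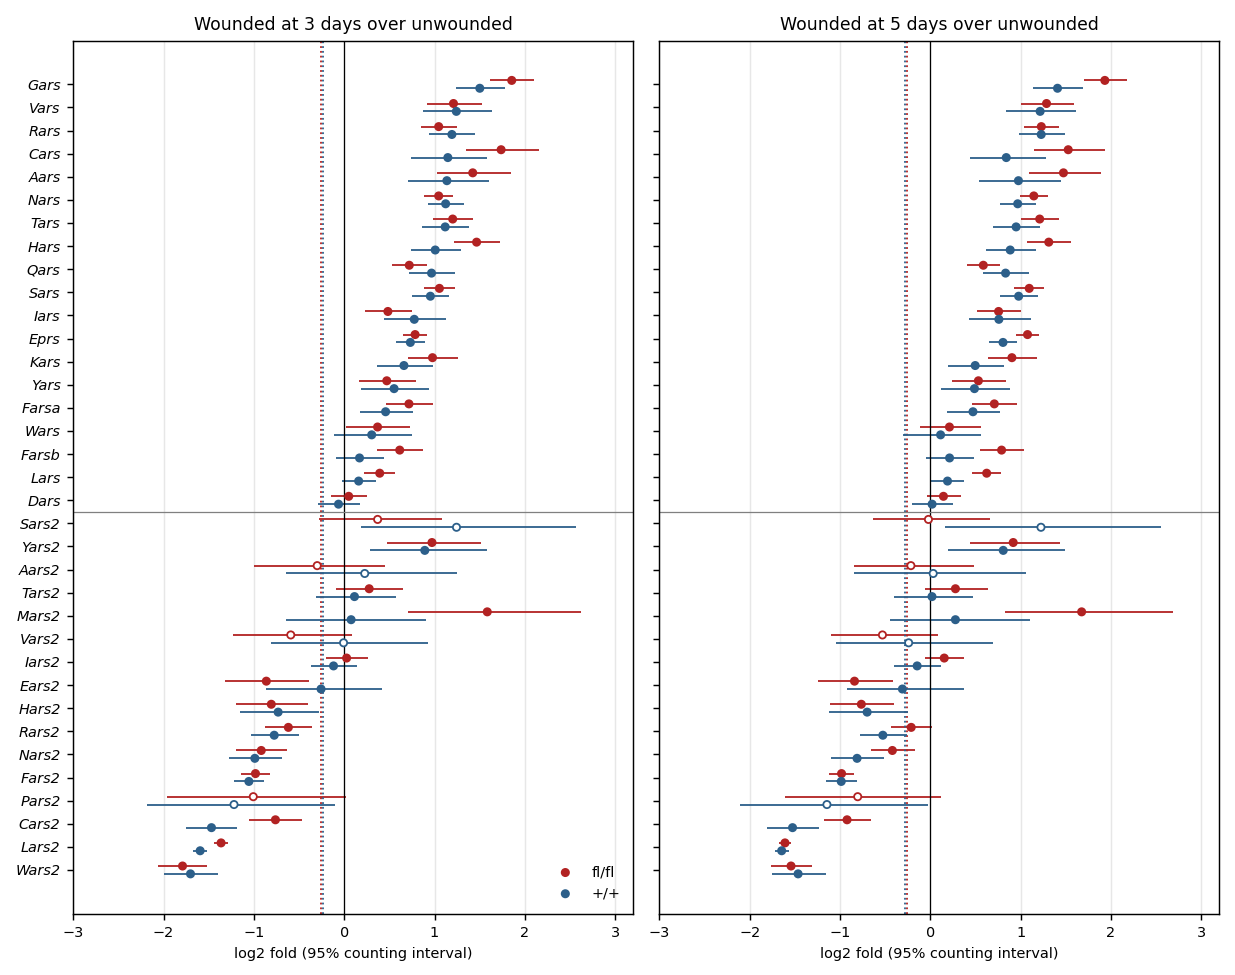
Log2 fold of wounded over unwounded cells for each synthetase gene at 3 and 5 days, with fl/fl in red, +/+ in blue and 95% counting intervals, where dotted lines mark the medians over all genes and open symbols members under 5 CPM. Most cytosolic members lie right of 0, with medians between 0.83 and 1.08, and most mitochondrial members left of it, with medians between -0.78 and -0.59.

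Split by known features, the cytosolic folds overlapped. The 7 members of the multisynthetase complex (Dars, Eprs, Iars, Kars, Lars, Qars and Rars) had median folds of 0.72 in fl/fl and 0.73 in +/+ at 3 days, and the 12 members outside it had 1.13 in fl/fl and 1.06 in +/+. The 11 ATF4-linked members had medians of 1.05 in fl/fl and 0.95 in +/+, and the other 8 had 0.85 and 0.81. Synthetases fall into class I and class II by unrelated catalytic folds of the protein. Class II members had medians of 1.05 in fl/fl and 0.98 in +/+, and class I members 0.72 and 0.78. The 5 members with the ATF4 core in their window had medians of 1.201 in fl/fl and 1.12 in +/+, and the 7 with a window without it 0.72 and 0.66. Their ranges in +/+ overlapped, at 0.55 to 1.501 with the core and -0.06 to 0.97 without it.

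Most mitochondrial synthetases, like most genes, made up a smaller share of the UMIs in wounded cells. By any size, 8 of 12 were lower in fl/fl and 9 of 12 in +/+ at each day, where 5914 to 6130 of the 10045 genes were. In fl/fl cells 8 of the 12 that passed the filter were more than 1.5-fold lower at 3 days and 6 at 5 days, where 38.6% and 38.9% of all genes were. In +/+ cells 7 were lower at 3 days and 6 at 5 days, where 38.7% and 39.5% of all genes were. These shares of members and of all genes are closer to each other than those of the cytosolic list. The median fold was -0.78 and -0.59 in fl/fl at 3 and 5 days, and -0.75 and -0.61 in +/+. Past 1.5-fold lower in both genotypes were 7 members at 3 days (Cars2, Fars2, Hars2, Lars2, Nars2, Rars2 and Wars2) and 5 at 5 days (Cars2, Fars2, Hars2, Lars2 and Wars2), where 35.1% and 35.4% of all genes were. Yars2 was past 1.5-fold higher in both genotypes at both days.

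Lars2 (chromosome 9 from 123366927 to 123462675), the mitochondrial leucyl enzyme, stood at 434, 169 and 142 CPM in fl/fl and at 489.9, 162 and 156 CPM in +/+ pools. Both unwounded pools were far above every wounded pool. Its fold was -1.36 (-1.44 to -1.29) and -1.61 (-1.68 to -1.54) in fl/fl, and -1.59 (-1.67 to -1.52) and -1.65 (-1.72 to -1.57) in +/+. Its level moved with the mitochondrial share of a cell's UMIs, at 337 CPM in cells with 5 to 10% and 125 CPM in cells below 5% of the 3-day fl/fl pool, and at 622 and 405 CPM in the unwounded +/+ pool. Barcodes of at least 100 and below 400 UMIs, taken as free RNA, held 2954 CPM of Lars2, and free RNA made up an estimated 3.28% and 3.21% of the unwounded fl/fl and +/+ pools and 0.517% to 0.635% of the wounded pools. With free RNA subtracted the fold was -1.199 and -1.45 in fl/fl, and -1.49 and -1.56 in +/+. In bulge-like cells only, its fold at 5 days in +/+ was -0.60. Without Lars2 the median of the mitochondrial list at 3 days was -0.76 in fl/fl and -0.73 in +/+.

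Wars2 (chromosome 3 from 99140107 to 99221230) charges tryptophan and stood at 38.7, 11.2 and 13.3 CPM in fl/fl and at 33.6, 10.3 and 12.2 CPM in +/+ pools. Unwounded pools were far above wounded ones in both genotypes, with folds of -1.79 (-2.06 to -1.51) and -1.54 (-1.76 to -1.32) in fl/fl, and -1.70 (-2.00 to -1.39) and -1.46 (-1.76 to -1.16) in +/+. Cars2 (ENSMUSG00000056228, chromosome 8 from 11514017 to 11550781), the mitochondrial cysteinyl enzyme, stood at 26.5, 15.6 and 14.0 CPM in fl/fl and at 37.9, 13.7 and 13.2 CPM in +/+ pools. Its folds were -0.76 (-1.05 to -0.47) and -0.92 (-1.18 to -0.65) in fl/fl, and -1.47 (-1.75 to -1.18) and -1.53 (-1.80 to -1.24) in +/+. The cysteinyl pair thus ran in opposite directions, with cytosolic Cars higher and Cars2 lower in all wounded pools. Fars2 (chromosome 13 from 36117428 to 36537595), the mitochondrial phenylalanyl enzyme, stood at 91.7, 46.4 and 46.4 CPM in fl/fl and at 101, 48.5 and 50.9 CPM in +/+ pools, lower in each wounded pool.

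A few mitochondrial members were not lower. Yars2 (chromosome 16 from 16302965 to 16309640), the tyrosyl enzyme, stood at 6.97, 13.7 and 13.2 CPM in fl/fl and at 6.79, 12.6 and 11.9 CPM in +/+ pools, with 36 and 22 UMIs in the unwounded fl/fl and +/+ pools. Its folds were 0.97 (0.47 to 1.51) and 0.92 (0.44 to 1.44) in fl/fl, and 0.89 (0.28 to 1.58) and 0.81 (0.20 to 1.49) in +/+. Mars2 (chromosome 1 from 55237177 to 55240058), the methionyl enzyme, stood at 2.13, 6.38 and 6.80 CPM in fl/fl and at 4.94, 5.21 and 5.98 CPM in +/+ pools. It was higher after wounding in fl/fl, by 1.58 (0.70 to 2.62) and 1.67 (0.82 to 2.69), from 11 UMIs in the unwounded pool, while the +/+ intervals spanned 0 (0.08, -0.65 to 0.90, and 0.28, -0.44 to 1.10). Tars2 (chromosome 3 from 95739974 to 95756365), the threonyl enzyme, stood at 14.3, 17.4 and 17.4 CPM in fl/fl and at 14.5, 15.7 and 14.7 CPM in +/+ pools. Sars2 (ENSMUSG00000070699, chromosome 7 from 28741957 to 28753879), the mitochondrial seryl enzyme, was under the filter, at 4.45, 5.75 and 4.38 CPM in fl/fl and 2.16 (7 UMIs), 5.11 and 5.05 CPM in +/+ pools, too few for a direction.

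The scale matters for the size of these folds. TMM factors raised the median of all genes by 0.53 to 0.60 in the 4 wounding comparisons, and the synthetases with it. Relative to the median of all genes, which no scaling changes, the cytosolic list stood at 1.23 and 1.33 in fl/fl and 1.19 and 1.11 in +/+ at 3 and 5 days. The mitochondrial list stood at -0.53 and -0.34 in fl/fl and -0.51 and -0.33 in +/+. Under TMM the mitochondrial medians came to -0.25 and -0.03 in fl/fl and -0.19 and -0.01 in +/+, so at 5 days they were close to 0. Under TMM the folds of Rars2 at 5 days (0.35 in fl/fl, 0.07 in +/+) and of Nars2 at 5 days in fl/fl (0.14) turned positive. In +/+ alone, so did those of Ears2 and Iars2 at both days and of Dars at 3 days, while in fl/fl those of Iars2 and Dars were positive on both scales and that of Ears2 negative. Under TMM 2 mitochondrial members at each day in fl/fl and 3 in +/+ were past 1.5-fold lower. In cells without UMIs of the cycling genes Mki67 and Top2a, the cytosolic median at 3 days in fl/fl was 0.51, with 9 members past 1.5-fold higher. This filter kept 171 of the 523 3-day fl/fl cells and 582 of the 662 unwounded fl/fl cells. A deeper cell is likelier to show such a UMI, so depth and cycling cannot be told apart in it.

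Depth per cell was set equal by thinning each cell to 3000 UMIs. The cytosolic members then summed to 1.997, 3.78 and 3.86 UMIs per cell in fl/fl pools and 2.09, 3.69 and 3.46 in +/+ pools. Mitochondrial members without Lars2 summed to 0.934, 0.772 and 0.707 UMIs in fl/fl and 1.18, 0.639 and 0.673 in +/+ pools. As in the pool sums, the cytosolic sum was higher and the mitochondrial one lower in both wounded pools than in the unwounded pool of each genotype. In fl/fl the mitochondrial order of the wounded stages differed between the scales, with 3 days above 5 days when thinned and 199 against 217 CPM in the pool sums. Gars was seen in 7.34%, 22.4% and 24.8% of thinned fl/fl cells and in 5.06%, 20.6% and 19.9% of thinned +/+ cells, against 15.1%, 81.1% and 87.7%, and 16.3%, 81.7% and 78.6%, before thinning. Before thinning, the mitochondrial members without Lars2 summed to 2.51, 9.07 and 11.4 UMIs per cell in fl/fl and 2.78, 9.07 and 8.92 in +/+, higher in the deeper wounded cells, so their lower values are shares of a cell's UMIs and not UMIs per cell. Thinning left out between 11 and 24 cells per pool.

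Folds of all genes moved with the length of the gene in the genome. Of the filtered genes 9967 (99.2%) could be placed, in 4 equal groups by span of 374 to 10788, 10789 to 25664, 25666 to 59735 and 59814 to 2390387 bp. From the shortest to the longest group the median fold at 3 days was 0.17, -0.07, -0.31 and -0.83 in fl/fl, and 0.20, -0.03, -0.30 and -0.88 in +/+. Cytosolic members lay above these medians in each group, with 0.72, 1.05, 0.77 and 0.61 in fl/fl and 0.97, 1.01, 0.96 and 0.17 in +/+, from 1, 7, 8 and 3 members. Mitochondrial members had 0.97, 0.28, -0.69 and -1.17 in fl/fl and 0.08, 0.11, -0.52 and -1.33 in +/+, from 3, 1, 4 and 4 members. They lay below the medians of all genes in the longer pair of groups of both genotypes and in the shortest group of +/+. In the other groups they lay above them. The 4 longest mitochondrial genes, Wars2, Nars2, Lars2 and Fars2, were all lower, and the longest cytosolic ones were Eprs, Farsb and Lars. Whether reads in introns were counted is not given in the sources used here, and the part of gene length in the mitochondrial folds was not tested.

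**Figure D3:**
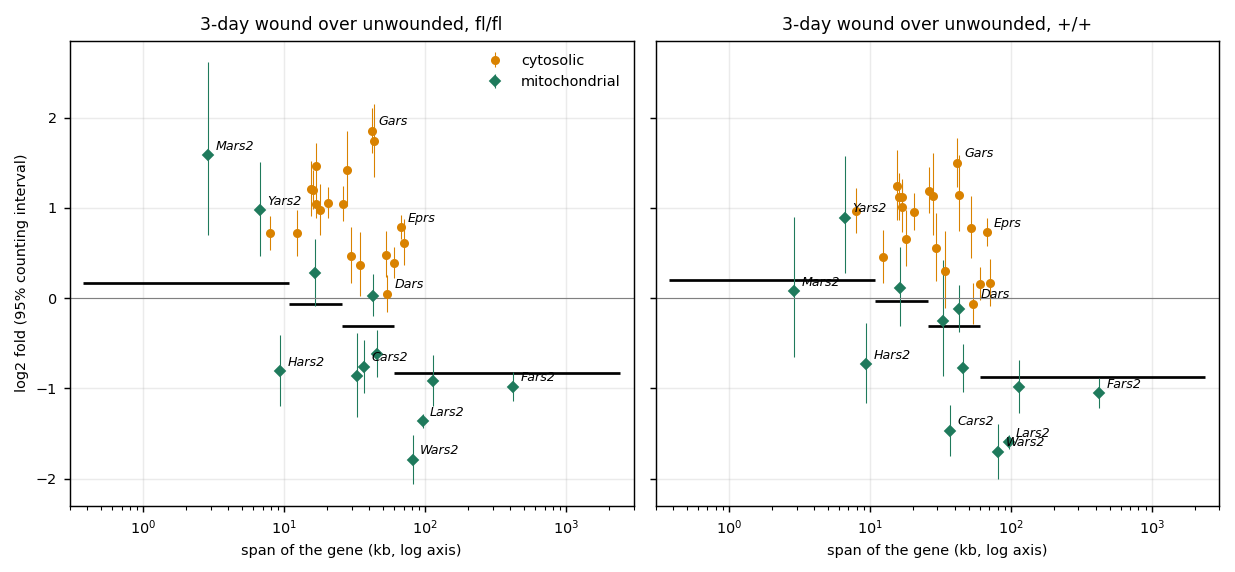
Log2 fold of 3-day wounded over unwounded cells against the genomic span of each synthetase gene in kb on a log axis, for fl/fl and +/+, with horizontal bars for the median of all genes in each of the 4 span groups. The bars step down from 0.17 to -0.83 in fl/fl and from 0.20 to -0.88 in +/+, with most cytosolic members above them.

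Between genotypes no cytosolic member lay past 1.5-fold at any stage. In unwounded cells 0 cytosolic members lay past 1.5-fold, where 2.47% of all genes were higher and 4.68% lower in fl/fl, and 1 mitochondrial member was higher (Ears2) and 1 lower (Mars2). At 3 days 0 members were past 1.5-fold (0.378% of all genes higher, 1.74% lower), and at 5 days 0 members (0.209% higher, 4.65% lower). The median fold of fl/fl over +/+ was -0.11 for the cytosolic and -0.15 for the mitochondrial list in unwounded cells, 0.00 and 0.04 at 3 days, and 0.14 and 0.12 at 5 days, beside -0.04, -0.03 and -0.00 over all genes.

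At 5 days each of the 19 cytosolic members was higher in fl/fl, by 0.01 to 0.28, where 49.9% of all genes were higher by any size. Of the 15 partner genes described below, 14 were also higher in fl/fl, with a median of 0.09, as were 8 of the 12 mitochondrial members. The highest of the 19 was Iars (chromosome 13 from 49682130 to 49734267), the isoleucyl enzyme, at 47.7 CPM (fl/fl) and 39.1 CPM (+/+), a fold of 0.28 (0.21 to 0.36). For Gars the fold was 0.20 (0.14 to 0.25), for Cars 0.18 (0.08 to 0.27) and for Sars 0.07 (0.03 to 0.12). Tars2, at 17.4 CPM (fl/fl) and 14.7 CPM (+/+), was the next highest of all members at 0.24 (0.11 to 0.37). The lowest were Lars2, at -0.14 (-0.18 to -0.10), and Fars2, at -0.13 (-0.21 to -0.06). The count of 19 came to 14 in the 381 fl/fl and 479 +/+ cells without Mki67 or Top2a UMIs. It came to 18 in fl/fl cells with 0 Phgdh UMIs and to 18 with equal weight per cell. It was 19 in male cells only, where the median was 0.09. In bulge-like cells, of which only 49 fl/fl and 139 +/+ ones came from 5-day wounds, the list was not higher in fl/fl. There 7 of the 19 were higher in fl/fl, a share close to the 4324 of the 10045 genes that were, and the median was -0.20. The cytosolic sum of these cells was 793 CPM (fl/fl) and 840.4 CPM (+/+), a fold of -0.08 whose interval spanned 0 (-0.23 to 0.06). The list thus had no clear direction in them. Farsb, at 18.9 CPM (fl/fl) and 46.5 CPM (+/+), had a fold of -1.30 (-2.30 to -0.43).

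At 3 days 10 of the 19 cytosolic members were higher in fl/fl by any size (41.9% of all genes were), between -0.06 and 0.13. The highest of all members were Mars2, at 0.29 (-0.01 to 0.59), and Cars2, at 0.19 (0.00 to 0.38). The lowest were Rars2, at -0.16 (-0.31 to -0.01), and Nars2, at -0.13. The count of 10 came to 6 in male cells only, to 5 in cells without Mki67 or Top2a UMIs and to 14 under TMM. In unwounded cells 7 of the 19 were higher (43.0% of all genes were), and 4 when fl/fl cells with 0 Phgdh UMIs or cells of up to 20% mitochondrial UMIs were used. Iars there had 0.29 (-0.12 to 0.71) and Ears2 0.64 (-0.09 to 1.40), with 57 UMIs in fl/fl and 23 UMIs in +/+. The lowest there were Mars2, at -1.21 (-2.47 to -0.02), and Cars2, at -0.52 (-0.88 to -0.15). Of the serine-linked enzymes, unwounded Cars had -0.51 (-1.09 to 0.07), Gars -0.33 (-0.69 to 0.04) and Sars -0.04 (-0.30 to 0.22), each interval spanning 0.

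**Figure D4:**
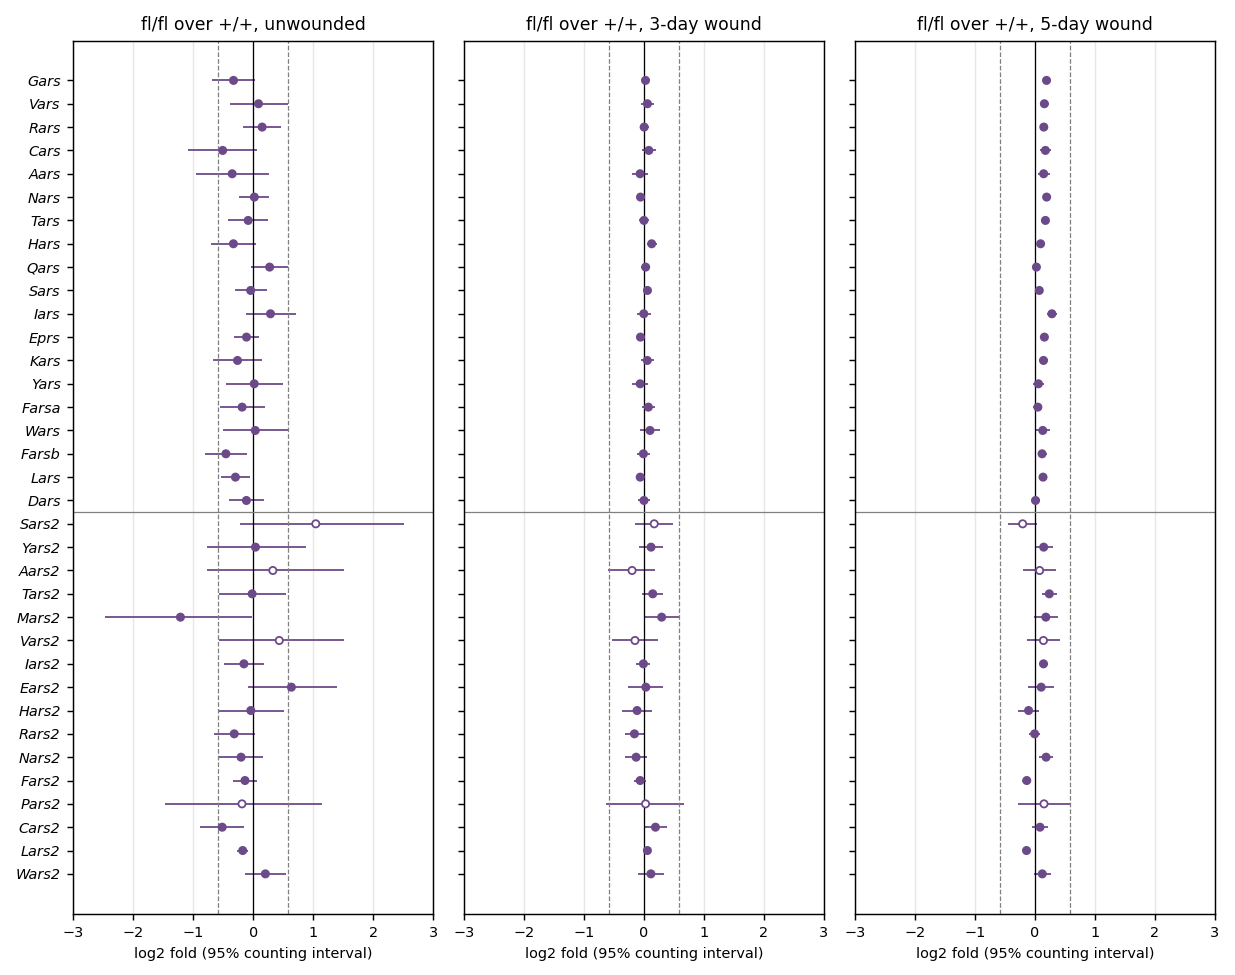
Log2 fold of fl/fl over +/+ cells for each synthetase gene in unwounded, 3-day and 5-day cells, with 95% counting intervals and dashed lines at 1.5-fold. The cytosolic members at 5 days lie between 0.01 and 0.28, and the wide intervals of the unwounded cells reflect their 5167131 UMIs in fl/fl and 3241223 UMIs in +/+.

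The difference between the genotypes' wounding folds was larger than 0 beyond counting error for a subset. At 3 days the fold in fl/fl exceeded that in +/+ for Cars by 0.59 (0.03 to 1.15), Hars by 0.46 (0.09 to 0.82) and Farsb by 0.45 (0.09 to 0.80), and for Mars2, Cars2 and Lars2 by 1.51 (0.36 to 2.65), 0.71 (0.31 to 1.10) and 0.23 (0.12 to 0.34). Over all genes 8.71% had such a difference above 0 and 8.81% one below 0. At 5 days it was above 0 for 7 cytosolic members (Cars, Eprs, Farsb, Gars, Hars, Kars and Lars; 0.27 to 0.69) and for Mars2, Cars2 and Nars2 (1.40, 0.60 and 0.39), where 12.1% of all genes were above 0. It was below 0 for 0 of the 31 members at either day, against 8.81% and 12.2% of all genes. Each member named here was lower in unwounded fl/fl than in unwounded +/+ cells, with folds of -1.21 to -0.11 and intervals below 0 for Farsb, Lars, Cars2, Lars2 and Mars2, and each such difference contains that gap. For Farsb the fold between the genotypes was -0.46 in unwounded cells and -0.01 at 3 days. These pools come from different animals, whose spread is not covered.

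From 3 to 5 days no member moved past 1.5-fold in either genotype, where 2.98% of all genes were higher and 6.78% lower in fl/fl, and 1.85% higher and 3.42% lower in +/+. The cytosolic median was 0.06 in fl/fl and -0.06 in +/+. Cars was lower at 5 days in both, by -0.21 (-0.33 to -0.09) in fl/fl and -0.31 (-0.41 to -0.21) in +/+. Nars2 and Rars2 were higher at 5 days, at 0.50 (0.33 to 0.67) and 0.41 (0.26 to 0.55) in fl/fl, and 0.18 and 0.25 in +/+.

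Within the wounded pools the summed level of the lists varied between clusters of cells, of which 13 held at least 50 cells. Clusters were formed with these genes among the others, so their levels are a description. The cytosolic sum was highest in the 2 cycling-like clusters (1626 and 1547 CPM). Wound-edge-like cells had 1405 CPM, suprabasal-like cells 1326 CPM and upper-follicle-like cells 1256 CPM. It was lower in bulge-like cells (1109 and 771 CPM in 2 clusters), in a junctional-like cluster led by Cxcl9 (1006 CPM) and in granular-like cells (855 CPM). The mitochondrial sum without Lars2 had another order, with 80.7 CPM in granular-like cells and 181 CPM in wound-edge-like cells at the low end. At the high end of the wounded clusters were 284 CPM in a cluster led by Aldh3a1 and H2-Q7 and 275 CPM in a cycling-like one. Unwounded clusters had 268 to 339 CPM, apart from 759 CPM, from 187 UMIs, in a bulge-like cluster of 52 unwounded +/+ cells. In the largest unwounded clusters the cytosolic sum was 697 CPM (fl/fl) and 721 CPM (+/+), under that of every wounded cluster.

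**Figure D5:**
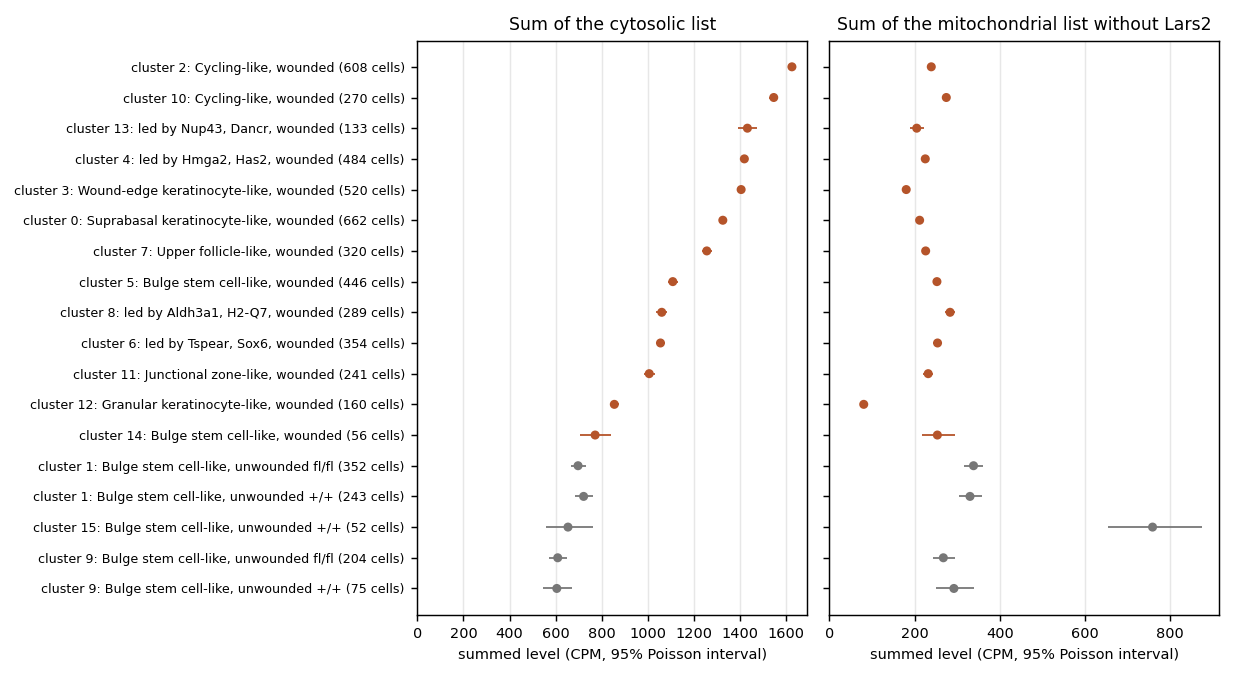
Summed CPM of the cytosolic list and of the mitochondrial list without Lars2 in each cluster of at least 50 cells, for wounded cells of both genotypes and below them for unwounded fl/fl and +/+ cells. The cytosolic sum runs from 771 to 1626 CPM in wounded clusters and from 605 to 721 CPM in unwounded ones.

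Bulge-like cells alone gave the same direction at 3 days. Their cytosolic sum was 658, 1178 and 793 CPM in fl/fl pools (638, 106 and 49 cells) and 703, 1147 and 840.4 CPM in +/+ pools (392, 239 and 139 cells). The median cytosolic fold at 3 days was 0.92 in fl/fl and 0.75 in +/+, beside -0.10 and -0.12 over all genes. At 5 days it was 0.25 in +/+, beside -0.07 over all genes, with Hars at -0.07. The mitochondrial medians were -0.56 in fl/fl and -0.72 in +/+ at 3 days, and -0.43 in +/+ at 5 days. Most wounded bulge-like cells were in 1 cluster led by Bgn and Shisa2, and unwounded ones in others, so these are not the same cells before and after.

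By cluster, fl/fl and +/+ cells at 5 days had cytosolic sums of 1377 and 1277 CPM in the suprabasal-like cluster and 1689 and 1539 CPM in a cycling-like one. The fl/fl sum was higher in 6 of the 7 clusters with at least 50 cells of both, and in 3 clusters the counting intervals lay apart, 1 of which ran the other way (upper-follicle-like, 1051 CPM for fl/fl and 1150 CPM for +/+). At 3 days it was higher in 3 of 4 clusters, and lower in wound-edge-like cells (1303 CPM, with 1402 CPM for +/+).

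Genes around the synthetases were read from lists of ATF4 targets, partners and elongation factors. Atf4 itself stood at 86.1, 128 and 142 CPM in fl/fl and at 73.7, 126 and 123 CPM in +/+ pools, higher in all wounded pools, by 0.57 at 3 days in fl/fl and 0.77 (0.59 to 0.96) in +/+. Of the 21 ATF4 targets past the filter, 14 were past 1.5-fold higher and 5 lower in fl/fl at 3 days, where 21.6% of all genes were higher and 38.6% lower. In +/+ 16 were higher and 3 lower, where 21.1% of all genes were higher and 38.7% lower. The lower ones in both genotypes were Atf3, also an early gene of dissociation stress, Slc3a2 and Vldlr, joined in fl/fl by Ddit3 and by Phgdh itself. The median folds of the list were 1.48 and 1.45 in fl/fl and 1.29 and 1.31 in +/+ at 3 and 5 days, beside medians over all genes of -0.26 and -0.25 in fl/fl and -0.24 and -0.28 in +/+. Asns, asparagine synthetase, had folds of 2.13 and 2.19 in fl/fl and 1.70 and 1.63 in +/+, and Psat1, a serine-synthesis enzyme, had 2.74 and 2.83 in fl/fl and 2.50 and 2.53 in +/+. Between genotypes the target list had medians of -0.15, -0.00 and 0.10 in unwounded, 3-day and 5-day cells, beside -0.04, -0.03 and -0.00 over all genes.

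Of 15 partners, 4 were past 1.5-fold higher in each wounding comparison, while 4 and 3 were lower in fl/fl at 3 and 5 days and 4 in each +/+ comparison. Of all genes 20.2% to 21.8% were higher and 38.6% to 39.5% lower. The medians of the partners lay between -0.01 and 0.08, and those of all genes between -0.28 and -0.24. Mars, the cytosolic methionyl enzyme, had folds of 1.73 and 1.61 in fl/fl and 1.17 and 1.06 in +/+. The complex scaffold was unequal, with Eef1e1 at 1.48 and 1.47 in fl/fl and 1.37 and 1.34 in +/+, Aimp2 at 1.03 and 0.99 in fl/fl and 1.08 and 1.13 in +/+, and Aimp1 at 0.46 and 0.57 in fl/fl and 0.43 and 0.42 in +/+. Aarsd1, an editing factor for alanyl-tRNA, was also higher, at 0.60 and 0.65 in fl/fl and 0.61 and 0.70 in +/+. On the lower side, Sepsecs, which finishes selenocysteinyl-tRNA, had -1.199 and -1.09 in fl/fl and -1.30 and -1.29 in +/+, and Pstk, the kinase before it, had -0.74 and -0.58 in fl/fl and -0.77 and -0.69 in +/+. Gatb, a subunit of the mitochondrial glutaminyl-tRNA amidotransferase, had -0.91 and -0.70 in fl/fl and -0.94 and -0.82 in +/+. Dtd1, a D-aminoacyl-tRNA deacylase, had -0.55 and -0.48 in fl/fl and -0.77 and -0.72 in +/+. The folds of Dtd1 in fl/fl, and that of Pstk at 5 days in fl/fl, were within or near the shift of 0.53 to 0.60 under TMM factors. They therefore have no clear direction there. Mtfmt, which formylates the mitochondrial initiator tRNA, had -0.72 and -0.82 in fl/fl and -0.01 and 0.01 in +/+. It stood at 16.3, 9.84 and 9.24 CPM in fl/fl and at 9.56, 9.47 and 9.65 CPM in +/+ pools. The genotypes thus differed mainly in the unwounded pools, which held 84 UMIs of Mtfmt in fl/fl and 31 UMIs in +/+. The 5 elongation factors had medians of 0.39 and 0.42 in fl/fl and 0.37 and 0.42 in +/+.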

How the data were processed

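The authors deposited 1 matrix of UMI counts per gene or hashtag and barcode (32285 genes, 2997303 barcodes, all barcodes rather than called cells), from reads of 28 and 90 bp. Per the submitters' processing notes, Cell Ranger 7.1.0, the mm10 build and Seurat 4.3.0 were used. Counting settings, such as the use of reads in introns, are not given in the sources used here. Conditions were read from the hashtag names in the deposited reference table.

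Filters of 1000 UMIs or more (9880 barcodes), 500 genes or more (9829) and a mitochondrial share of no more than 10% left 6900 barcodes. HTODemux (Seurat 5.3.0 in R 4.3.3, quantile 0.99) called 5659 singlets, which were used, 503 doublets and 738 negatives. No other doublet caller was run, so doublets within a hashtag remain. UMIs were summed per pool and scaled to CPM. Exact conditional binomial intervals were set on ratios of CPM (folds), exact Poisson intervals on levels and Clopper-Pearson intervals on shares (scipy 1.17.1 in Python 3.11.15). Differences of log2 folds carry counting intervals by the delta method. Positions and promoter windows were matched by symbol to RefSeq tables of GRCm38.p6. Free RNA was estimated from 65043 barcodes of at least 100 and below 400 UMIs.

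Clustering used scanpy 1.11.5 with 15 neighbours on 30 principal components of 2000 variable genes, at Leiden resolution 1. A cluster was named "-like" from fixed marker lists, by a rule tightened after the data were seen. Cells with at least 2 Xist UMIs and at most 1 Y-linked UMI were called female, and the reverse male.

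The members, gene lists and comparisons were chosen with earlier results of these data known. Named in every pool were Sars, Gars, Cars, Sars2 and Cars2, the 5 highest and 3 lowest cytosolic and the 3 highest and 3 lowest mitochondrial folds at 3 days in +/+, and the 2 highest and 2 lowest members of each genotype comparison. Farsa, Eprs, Fars2, Hars and the folds between days were added after their values were seen. Of the related genes, 1 is not reported here and enters no count. Of the 15 partners counted, Aimp1 and those past 1.5-fold in a wounding comparison are named, and of the ATF4 targets Asns, Psat1, Phgdh and those lower past 1.5-fold.

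The calculation was tested on simulated data of 10045 genes, 200 of them changed, for each comparison. Between 98% and 100% of changed genes had the right sign, and 94.7% to 96.2% of intervals of unchanged genes held 0. Of unchanged genes, 2.70% lay past 1.5-fold by counting error alone in the 3-day comparison of +/+ cells and 5.37% in the unwounded genotype comparison. Alternatives were TMM factors (edgeR 4.0.16), DESeq2 1.42.0 size factors, equal weight per cell, other cell and hashtag filters, male cells only, fl/fl cells with 0 Phgdh UMIs, cells without Mki67 or Top2a UMIs, removal of cells outside the sort, free RNA subtracted, other CPM minimums, a 2-fold threshold and, added after the data were seen, the list without Lars2 and bulge-like cells only.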

Additional observations from a re-analysis of the deposited data

How the results depend on the processing

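Of 291 medians recomputed under 17 alternatives, 265 stayed within the spread used here, 26 moved and 0 were called reversed. Some of the 265 could not move. The 2-fold threshold leaves every median as it was, and dropping the CPM minimum leaves every cytosolic one. The choice of fl/fl cells with 0 Phgdh UMIs leaves the medians of comparisons within +/+ cells as they were. Only medians past 1.5-fold could be called reversed, which leaves out those between genotypes and between wound days. Some of these changed sign. The cytosolic median of fl/fl over +/+ at 3 days ranged from -0.066 to 0.12. The mitochondrial median of 5-day over 3-day cells in +/+ ranged from -0.046 to 0.41. Bulge-like cells of the 5-day fl/fl pool (49 cells) were not among the recomputed medians. TMM factors gave cytosolic medians of 1.51 and 1.64 in fl/fl and 1.51 and 1.43 in +/+ at 3 and 5 days, and mitochondrial medians of -0.25 and -0.028 in fl/fl and -0.19 and -0.014 in +/+. DESeq2 size factors gave 1.45 and 1.55 in fl/fl and 1.42 and 1.33 in +/+ for the cytosolic list, and -0.31 and -0.12 in fl/fl and -0.28 and -0.12 in +/+ for the mitochondrial one. These factors moved the median of all genes alike. The hashtag rule of 20 UMIs and 70% gave a cytosolic median of 0.92 at 5 days in fl/fl. Cells without Mki67 or Top2a UMIs gave cytosolic medians of 0.51 and 0.70 in fl/fl at 3 and 5 days, a mitochondrial one of -1.15 in fl/fl at 3 days, and mitochondrial medians of 5-day over 3-day cells of 0.41 in fl/fl and 0.33 in +/+. Bulge-like cells alone gave cytosolic medians of 0.25 for 5 days over unwounded in +/+, 0.12 for fl/fl over +/+ at 3 days, and -0.41 for 5 over 3 days in +/+, with a mitochondrial median of 0.41 there. The cause of these shifts was not tested.

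Counts past the fold moved by over 1.5 times as follows. Mitochondrial members lower numbered 8 and 6 in fl/fl and 7 and 6 in +/+ at 3 and 5 days. They came to 2 and 2 in fl/fl and 3 and 3 in +/+ under TMM, to 2 and 2 in fl/fl and 4 and 3 in +/+ under DESeq2 size factors, to 2 and 2 in fl/fl and 4 and 3 in +/+ at 2-fold, and to 5 and 3 in fl/fl with a minimum of 20 CPM, which leaves fewer members. Cytosolic members higher came to 9 and 10 in fl/fl and 8 and 3 in +/+ at 2-fold, to 19 in +/+ at 5 days under TMM, to 9 in fl/fl at 3 days without cells holding Mki67 or Top2a UMIs, and to 5 in +/+ at 5 days in bulge-like cells. All 88 pairs of member and wounding comparison past 1.5-fold kept their sign under each alternative except bulge-like cells only. There 63 of 64 did, and Hars at 5 days in +/+ had -0.07. The 2-fold threshold, the other CPM minimums and the list without Lars2 leave each member's fold as it was, so no sign could change under them. Likewise, the choice of fl/fl cells with 0 Phgdh UMIs leaves the +/+ folds as they were. Ears2 and Mars2 between unwounded genotypes kept their sign.

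No paired analysis was possible because each condition is 1 pool of cells with no replicate, and the labels number no pools. Depth limits the unwounded pools most, where members such as Mars2 and Sars2 rest on 7 to 23 UMIs. The number of animals per pool, sex, sort gate and cell types differ or are unknown between pools, and cannot be told apart from wounding or genotype.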

Other observations

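Single cells weighed more in the unwounded pools. For Gars, the cell with the most UMIs held 8.22% of the UMIs of the unwounded fl/fl pool and 12.2% of those of the unwounded +/+ pool, against 0.421% to 1.01% in the wounded pools. For the stress-response gene Sesn2 these shares were 22.5% in unwounded fl/fl and 36.6% in unwounded +/+ cells. With equal weight per cell, the Gars fold at 3 days in +/+ was 1.77, and the median cytosolic fold was 0.98 in fl/fl and 0.89 in +/+.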
